A study of Homo sapiens with 6 samples.

Results

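The subject is a group of 10 integrin subunit genes in T24 cells, a human bladder cancer line. The group held 5 alpha chains (ITGA2, ITGA3, ITGA5, ITGA6 and ITGAV) and 5 beta chains (ITGB1, ITGB3, ITGB4, ITGB5 and ITGB8). They were taken as a list of gene names, and no measured value entered the rule, but the list was chosen with earlier results of these data known. All 10 were among the 58288 gene identifiers of the count table, and all 10 passed the filter on low counts that left 14415 genes for testing.

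Each library came from T24 cells transfected with an siRNA by lipofection. The 3 conditions were a negative control siRNA (NC, labelled siControl), si-circ235-1 (labelled siRNA1) and si-circ235-2 (labelled siRNA2). Both circ235 siRNAs were directed at the junction of circ235, a circular RNA made from exons of CCNY, and each condition had 2 libraries that the labels call biological replicates. The question was how these genes differed between each siRNA and NC, and between the siRNAs. No other cell line was sequenced, and the poly(A) selection used does not retain a circular RNA, so circ235 itself was not measured in these libraries. The study measured the circular RNA separately by qRT-PCR, and reports that the former of these siRNAs gave the stronger knockdown in each cell line used. The siRNA meant is si-circ235-1. Any relation of knockdown strength to the integrin values was not tested.

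Integrins are receptors of the cell surface that bind the extracellular matrix. Each receptor is an alpha chain joined to a beta chain, and the pairing sets which matrix proteins are bound. Inside the cell the beta tail binds adaptors such as talin and kindlin, which connect it to actin and to kinases of the focal adhesion. In the urothelium the ITGA6 and ITGB4 pair anchors basal cells to the basement membrane in hemidesmosomes.

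The libraries held 15373992 to 19912893 counts, so the number of libraries limited the precision more than counting did for most of these genes. Replicates differed by more than sampling noise in every condition, with chi-square per degree of freedom between 23.4 and 34.9. The keratins KRT7, KRT8 and KRT18 were between 619 and 2307 CPM (the usual depth-scaled counts, after TMM scaling), whereas KRT5, KRT19, UPK3A and the epithelial cadherin CDH1 were at 0.287 CPM or lower in every library. The mesenchymal filament gene VIM was between 499 and 1499 CPM. Of 7 leukocyte markers, PTPRC and CD3E had 0 counts in all 6 libraries, and of 6 platelet and endothelial markers GP9 and PF4 did. With 0 counts a level of up to 0.143 to 0.210 CPM remains possible (3 counts of each library). The summed leukocyte markers were 7.70 and 9.91 CPM in NC, 20.5 and 23.2 CPM under si-circ235-1, and 5.07 and 5.31 CPM under si-circ235-2, and they came almost wholly from CD14 and ITGB2. The 6 summed platelet and endothelial markers were between 3.50 and 5.45 CPM. The 13 summed epithelial and urothelial markers were between 3923 and 5591 CPM in NC, 4311 and 4633 CPM with si-circ235-1, and 3110 and 3693 CPM with si-circ235-2, and 6 mesenchymal markers, of which TWIST1 was at 0 throughout, summed to between 678 and 860, 1187 and 1520, and 519 and 667 CPM. The mesenchymal sums ran from 519 to 1520 CPM, close to the VIM range of 499 to 1499 CPM. Single markers did not all follow the sums. Against NC, CDH2 was called higher under si-circ235-2, PPARG was called higher under both siRNAs, and KRT7 was called lower under si-circ235-2. The part of these marker differences in the results was not tested. In bulk RNA of this kind, fewer cells of a type and less RNA per cell cannot be told apart.

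The levels of the 10 genes covered a wide range. Levels between genes were compared per length, as CPM per kb of the longest transcript in GENCODE 29. ITGA3, the alpha chain of a laminin receptor, was highest in NC, at 273 and 258 CPM per kb. ITGB1, the beta chain shared by most matrix-binding integrins, followed at 69.1 and 112 CPM per kb. ITGB5, which joins ITGAV in a vitronectin receptor, was at 56.7 and 51.9 CPM per kb. The ranges of these 3 genes did not overlap in NC.

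Below them in NC came ITGA5, the fibronectin receptor chain, at 16.4 and 15.7 CPM per kb. ITGA6 (9.87 and 11.8 CPM per kb) and ITGAV (10.4 and 11.0 CPM per kb) overlapped, and their order in NC was not resolved. ITGB4 was at 8.42 and 6.35 CPM per kb. A large step separated these from the 3 lowest genes. ITGB3 (0.608 and 1.21 CPM per kb) and ITGA2 (0.684 and 0.847 CPM per kb) overlapped, and ITGB8, which joins ITGAV to bind latent TGF-beta, was lowest at 0.375 and 0.405 CPM per kb. The ITGB3 level per kb may be too low, because reads of exons it shares with another gene may be missing.

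**Figure D1:**
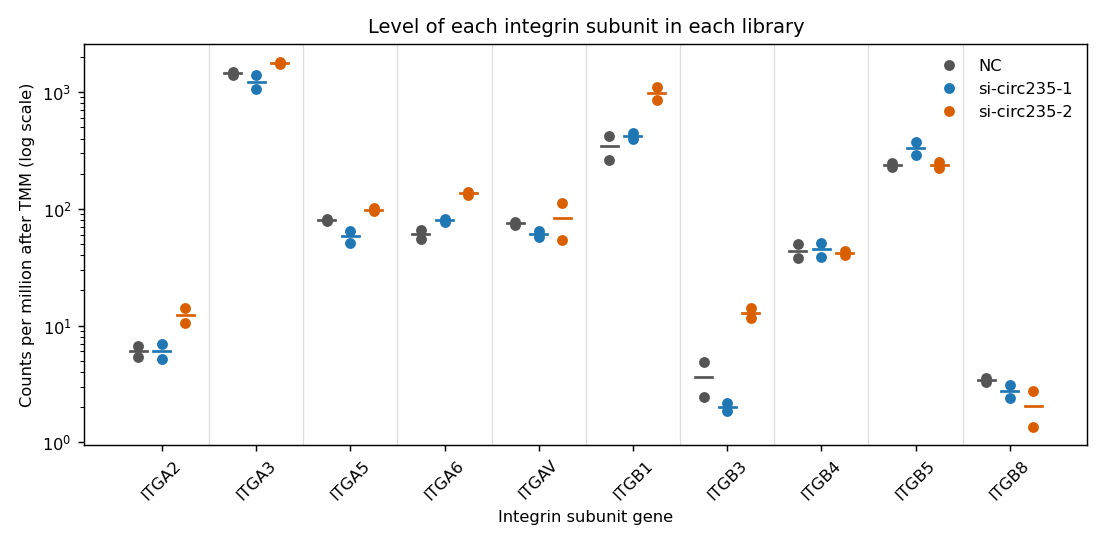
Level of each integrin subunit in each of the 6 libraries, as CPM after TMM on a log axis; each dot is a library and each short bar is the mean of the 2 libraries of a condition. Both si-circ235-2 libraries lie above the other 4 for ITGA2, ITGA3, ITGA5, ITGA6, ITGB1 and ITGB3. ITGAV is split within si-circ235-2 (53.7 and 112 CPM), and ITGB4 overlaps in all 3 conditions.

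The study pairs circ235 with the microRNA miR-330-5p, so the reference 3′ UTR of each member was searched for the word CCCAGAG, which pairs with bases 2 to 8 of that microRNA. The mature sequence from RefSeq (GRCh38.p14, chr19:45639049-45639070, minus strand) is shown to give the seed, in capitals.
hsa-miR-330-5p: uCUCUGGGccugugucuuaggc
The word was found in the 3′ UTR of ITGA2, ITGA3, ITGA5 and ITGB8, and in none of the other 6 members. The matched sites are given with the matching word in capitals, each on the strand of its gene and in GRCh38 coordinates of GENCODE 29.
ITGA2 (chr5:53090849-53090870, plus strand): tttaaactggctggCCCAGAGt
ITGA3 (chr17:50090095-50090116, plus strand): cagcctcagaaggcCCCAGAGa
ITGA5 site 1 (chr12:54396162-54396183, minus strand): gctcctctccccagCCCAGAGa
ITGA5 site 2 (chr12:54395708-54395729, minus strand): atgctggcccagggCCCAGAGc
ITGA5 site 3 (chr12:54395443-54395464, minus strand): ggccctccctgttcCCCAGAGa
ITGB8 site 1 (chr7:20410314-20410335, plus strand): ttatccctacgcttCCCAGAGa
ITGB8 site 2 (chr7:20411398-20411419, plus strand): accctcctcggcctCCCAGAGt
ITGA5 held 3 matches and ITGB8 held 2. Among the tested genes with an annotated 3′ UTR, 20.5% held at least 1 match, 4.94% at least 2 and 1.51% at least 3. The median 3′ UTR of the members was 1644 nt and that of the tested genes was 1341 nt. A match describes the sequence and not a bound site.

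For si-circ235-1 against NC, none of the 10 integrin genes passed the test, in either direction. In all tested genes, 2.24% were higher and 3.64% were lower at an adjusted p under 0.05 (edgeR quasi-likelihood test, Benjamini-Hochberg over 14415 genes). At an unadjusted p under 0.05, 1 member was higher and 2 were lower by edgeR, and DESeq2 called 0. The median log2 fold change of the members was -0.12, against -0.03 for all tested genes.

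The 3 members under the unadjusted threshold were ITGB5, ITGA5 and ITGB3. ITGB5 was at 248 and 227 CPM in NC and 376 and 291 CPM in si-circ235-1, with a log2 fold change of 0.49 (SE 0.20, adjusted p = 0.152). ITGA5 was at 82.0 and 78.3 CPM in NC and 64.7 and 51.3 CPM in si-circ235-1, with a log2 fold change of -0.47 (SE 0.18, adjusted p = 0.145). Neither difference passed the edgeR test after adjustment. The pairs of libraries did not overlap in either gene, nor in ITGA3, ITGA6, ITGAV, ITGB3 and ITGB8. The share of all tested genes without such overlap was not counted, so the lack of overlap does not single out these genes. ITGB3 was at 2.43 and 4.83 CPM in NC and at 2.17 and 1.84 CPM in si-circ235-1, with a log2 fold change of -0.86 (SE 0.37, adjusted p = 0.174). The ITGB3 counts behind these levels were 37 and 79 in NC and 31 and 33 in si-circ235-1.

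With the trend of each library over transcript length and GC content removed, ITGB5 alone passed for si-circ235-1 against NC, at a log2 fold change of 0.66 (adjusted p = 0.0156, edgeR). The other 7 members had log2 fold changes between -0.32 and 0.39 in the main test. ITGA6 was the highest of these, at 81.6 and 77.8 CPM in si-circ235-1 against 55.4 and 66.4 CPM in NC (log2 fold change 0.39, SE 0.18, adjusted p = 0.204 by edgeR).

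For si-circ235-2 against NC, 4 of the 10 integrin genes rose and 0 fell. They were ITGB3, ITGB1, ITGA6 and ITGA2. In all tested genes, 15.7% were higher (2270 genes) and 15.7% were lower (2260 genes). No member was lower at an unadjusted p under 0.05 by edgeR, and DESeq2 called the same 4 genes higher and 0 lower. The median log2 fold change of the members was 0.29, against -0.004 for all tested genes.

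ITGB3 (ENSG00000259207, chr17:47253846-47311816 of GRCh38, plus strand), which with ITGAV forms a vitronectin receptor, had the largest rise of the 10. It was at 2.43 and 4.83 CPM in NC and at 11.7 and 14.2 CPM in si-circ235-2, from 37 and 79 counts and from 198 and 296 counts. Both si-circ235-2 libraries stood above both NC libraries. The log2 fold change was 1.83 (SE 0.34, adjusted p = 0.00411, edgeR).

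ITGB1 (ENSG00000150093, chr10:32900319-33005792, minus strand) had the largest rise among the members above 10 CPM. It was at 261 and 424 CPM in NC and at 858 and 1102 CPM in si-circ235-2, a log2 fold change of 1.52 (SE 0.26, adjusted p = 0.00326, edgeR). Its NC libraries differed 1.62-fold from each other, a gap that 5.41% of the 8995 genes with a mean of at least 10 CPM reached in NC. The lower si-circ235-2 library was still above the higher NC library.

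Of the alpha chains that can join ITGB1, ITGA6 and ITGA2 rose with it. ITGA6 (ENSG00000091409, chr2:172427354-172506282, plus strand), a laminin receptor chain, was at 55.4 and 66.4 CPM in NC and at 131 and 139 CPM in si-circ235-2, a log2 fold change of 1.15 (SE 0.18, adjusted p = 0.00259, edgeR). ITGA2 (ENSG00000164171, chr5:52989326-53094779, plus strand), a collagen receptor chain, was at 5.38 and 6.66 CPM in NC and at 10.6 and 14.1 CPM in si-circ235-2, a log2 fold change of 1.03 (SE 0.28, adjusted p = 0.0189, edgeR). The groups did not overlap for either gene, nor for ITGA3, ITGA5 and ITGB8, which were not called. Here too the share of all tested genes without overlap was not counted, so this does not single out these genes. The ITGA2 call was lost when NC replicate 1 was omitted (log2 fold change 0.88) and when si-circ235-2 replicate 2 was (0.81).

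The remaining alpha chains did not pass the test. ITGA3 was at 1498 and 1415 CPM in NC and 1804 and 1734 CPM in si-circ235-2 (log2 fold change 0.28, SE 0.23). ITGA5 was at 82.0 and 78.3 CPM in NC and 101 and 95.7 CPM in si-circ235-2 (log2 fold change 0.30, SE 0.18). ITGAV was at 73.3 and 77.3 CPM in NC, and its si-circ235-2 libraries lay on either side of these at 53.7 and 112 CPM. The 2.07-fold gap between the si-circ235-2 libraries in ITGAV was reached by 4.0% of the genes with at least 10 CPM in that condition. The ITGAV log2 fold change was 0.14 (SE 0.28), and it became -0.49 with only replicate 1 of si-circ235-2 kept and 0.57 with only replicate 2 kept.

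The remaining beta chains likewise did not pass. ITGB4, the hemidesmosome chain, was at 49.9 and 37.6 CPM in NC and 44.0 and 40.5 CPM in si-circ235-2 (log2 fold change -0.05, SE 0.22). ITGB5 was at 248 and 227 CPM in NC and 253 and 226 CPM in si-circ235-2 (log2 fold change 0.01, SE 0.20). Both genes overlapped between the groups. ITGB8 was at 3.28 and 3.54 CPM in NC and 1.36 and 2.72 CPM in si-circ235-2 (log2 fold change -0.73, SE 0.40), from 50 and 58 counts and from 23 and 57 counts. The members that hold the microRNA word lay on both sides of zero in this comparison, from ITGB8 at -0.73 to ITGA2 at 1.03. For si-circ235-1 against NC they were at -0.47 (ITGA5), -0.32 (ITGB8), -0.24 (ITGA3) and 0.01 (ITGA2), none of them called. Any part of miR-330-5p in these values was not tested.

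**Figure D2:**
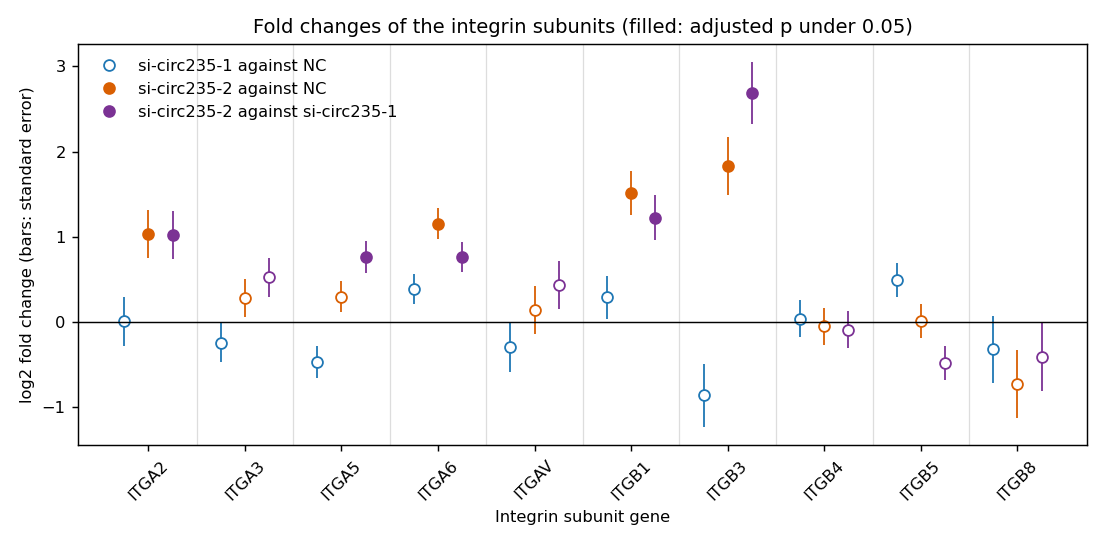
Log2 fold change of each integrin subunit in the 3 comparisons, with bars of 1 standard error; filled points passed an adjusted p of 0.05 in edgeR and open points did not. The si-circ235-1 points are all open, and ITGA2, ITGA6, ITGB1 and ITGB3 are filled and above zero in both comparisons of si-circ235-2.

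Transcript length moved with the direction of change under si-circ235-2. The tested genes were split by transcript length into 4 classes of nearly equal number. In the class with the longest transcripts (above 5130 nt), 34.3% were higher and 3.39% were lower than in NC, and the median log2 fold change was 0.45. In the class with the shortest transcripts (up to 2069 nt), 3.14% were higher and 31.5% were lower, and the median was -0.57. Of the 10 integrin genes 6 were in the longest class (ITGA2, ITGA3, ITGA6, ITGAV, ITGB4 and ITGB8) and 4 in the next (ITGA5, ITGB1, ITGB3 and ITGB5), where 18.4% of genes were higher. The genes were split by GC content in the same way. In the highest GC class (above 56.5%, with ITGA3 and ITGB4), 5.84% were higher and 32.9% were lower, and the median was -0.45. In the second-highest, with ITGA5, ITGB3 and ITGB5, 18.0% were higher and 14.5% were lower. In the second-lowest GC class, with ITGA6, 26.0% were higher and 7.95% were lower. The lowest GC class held ITGA2, ITGAV, ITGB1 and ITGB8. There 13.1% were higher and 7.37% were lower, and the median was 0.02. For si-circ235-1 against NC, 0.97% of the highest GC class were higher and 8.06% were lower.

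Once the trend over length and GC content had been taken out, ITGB1 and ITGB3 stayed near their values, at log2 fold changes of 1.37 and 1.51 (adjusted p = 0.00353 and 0.0103, edgeR). ITGA6 fell to 0.55 and kept its call (adjusted p = 0.0129, edgeR), and ITGA2 fell to 0.51 and lost it (adjusted p = 0.103, edgeR). ITGB8 passed as lower at -1.12 (adjusted p = 0.0295, edgeR). The length and GC parts of the trend were not removed separately. The part of RNA quality or library preparation in the trend was not tested.

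**Figure D3:**
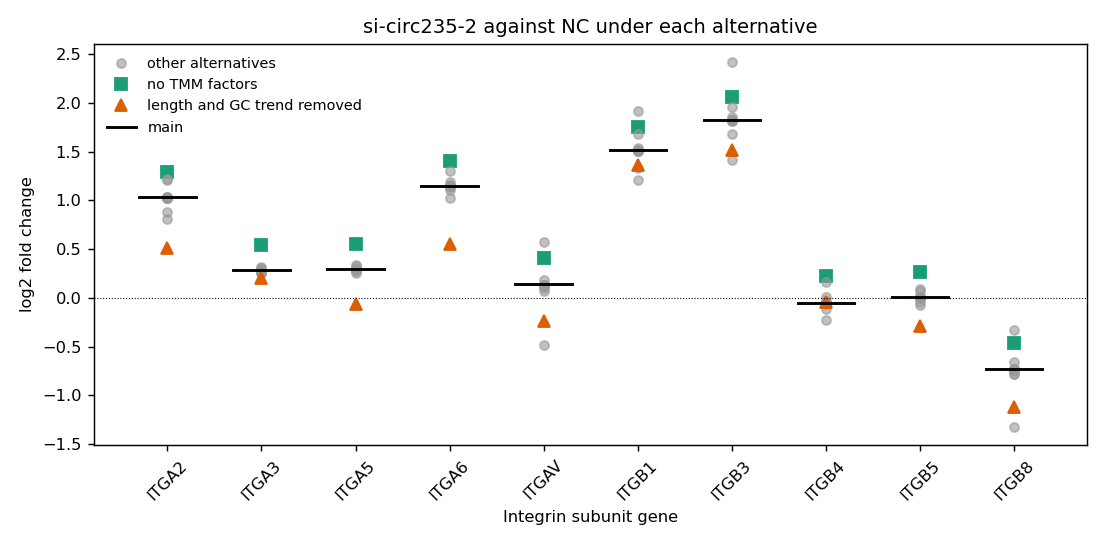
Log2 fold change of each integrin subunit for si-circ235-2 against NC, with the main value as a black bar and each alternative as a point; orange triangles have the length and GC trend removed and green squares have no TMM factors. ITGB1 and ITGB3 stay above 1.2 under every alternative drawn, and ITGA6 and ITGA2 drop to 0.55 and 0.51 with the trend removed.

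Direct comparison of the siRNAs gave 5 integrin genes that were higher in si-circ235-2 than in si-circ235-1 and 0 that were lower. In all tested genes 21.1% were higher and 18.6% were lower. The median log2 fold change of the members was 0.64, against 0.04 for all tested genes. At an unadjusted p under 0.05, 1 member was lower by edgeR (ITGB5), and DESeq2 called 6 higher and ITGB5 lower.

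ITGB3 again differed most, at 11.7 and 14.2 CPM in si-circ235-2 against 2.17 and 1.84 CPM in si-circ235-1 (log2 fold change 2.69, SE 0.36, adjusted p = 0.000683, edgeR). ITGB1 was at 858 and 1102 CPM against 445 and 393 CPM (1.23, SE 0.26, adjusted p = 0.00422, edgeR). ITGA2 was at 10.6 and 14.1 CPM against 5.18 and 6.92 CPM (1.02, SE 0.28, adjusted p = 0.0149, edgeR). In these 3 genes the conditions did not overlap, nor did they in ITGA3, ITGA5, ITGA6 and ITGB5. As above, the share of all tested genes without overlap was not counted, and the lack of overlap does not single out these genes.

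ITGA5 and ITGA6 differed by nearly the same amount. ITGA6 was at 131 and 139 CPM in si-circ235-2 against 81.6 and 77.8 CPM in si-circ235-1 (0.76, SE 0.18, adjusted p = 0.00694, edgeR). ITGA5 was at 101 and 95.7 CPM against 64.7 and 51.3 CPM (0.76, SE 0.18, adjusted p = 0.00834, edgeR). ITGA5 passed here though it did not pass against NC with either siRNA, with its NC libraries lying between the siRNAs.

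Of the members that did not pass, ITGB5 was at 253 and 226 CPM in si-circ235-2 against 376 and 291 CPM in si-circ235-1 (-0.48, SE 0.20, adjusted p = 0.0752, edgeR), and ITGA3 had a log2 fold change of 0.52 (SE 0.23, adjusted p = 0.0905, edgeR). ITGAV, ITGB4 and ITGB8 were between -0.41 and 0.44. After removal of the length and GC trend, ITGA5 (0.23) and ITGA6 (0.27) lost their calls and ITGB5 passed as lower (-0.95, adjusted p = 0.00117, edgeR). Without si-circ235-1 replicate 2, ITGA5, ITGA6 and ITGB1 lost theirs and 2 members were called, and ITGA2 lost its call when either si-circ235-1 replicate 1 or si-circ235-2 replicate 2 was omitted.

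The make-up of the alpha and beta chains was compared on the scale of CPM per kb. ITGB1 made up 58.1% ± 9.93 (SD, n = 2) of the 5 beta members in NC, 56.8% ± 2.32 under si-circ235-1 and 79.6% ± 3.90 under si-circ235-2. ITGB5 made up 36.1% ± 8.28 in NC, 38.9% ± 2.10 under si-circ235-1 and 17.1% ± 3.53 under si-circ235-2. Libraries of si-circ235-2 did not overlap the others in either share. No test of these shares was run.

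Among the alpha chains ITGA3 was dominant in every condition, at 87.4% ± 0.844 (SD, n = 2) of the 5 alpha members in NC, 86.3% ± 1.70 under si-circ235-1 and 85.0% ± 1.79 under si-circ235-2. ITGA6 made up 3.57% ± 0.566 in NC, 5.52% ± 0.738 under si-circ235-1 and 6.34% ± 0.310 under si-circ235-2. Per kb, the ITGA3 level was 3.96 and 2.31 times that of ITGB1 in NC, 2.17 and 1.88 times under si-circ235-1, and 1.45 and 1.09 times under si-circ235-2. These ratios used the longest transcripts (5479 nt for ITGA3 and 3784 nt for ITGB1). With total exon length (9802 and 6011 nt) each would be lower, so ITGA3 may not exceed ITGB1 in the si-circ235-2 library at 1.09.

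The ratio of ITGB4 to its partner ITGA6 per kb was 0.854 and 0.537 in NC, 0.595 and 0.471 under si-circ235-1, and 0.318 and 0.276 under si-circ235-2. It was lowest in the si-circ235-2 libraries, where ITGA6 was higher and ITGB4 overlapped NC. The ratio of ITGB3 to ITGAV was 0.0583 and 0.110 in NC, 0.0660 and 0.0502 under si-circ235-1, and 0.383 and 0.223 under si-circ235-2. On this scale ITGB3 stayed below ITGAV in all 6 libraries, though ITGB3 reads of shared exons may be missing.

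**Figure D4:**
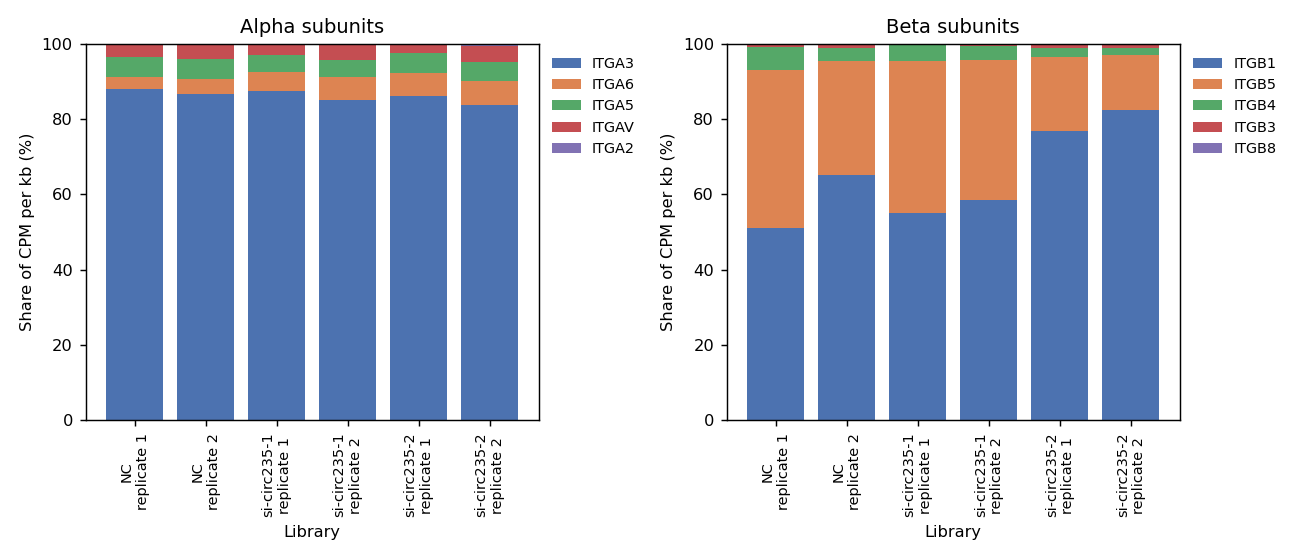
Share of each alpha chain (left) and beta chain (right) in the summed CPM per kb of its 5 members, as stacked percentages for each library. ITGA3 fills over 80% of the alpha bars in all 6 libraries, while ITGB1 fills 77% and 82% of the beta bars in si-circ235-2 and 51% to 65% in the other 4.

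Across the 6 libraries, the pattern of ITGB1 was most like that of ITGA6 (Pearson r = 0.977 on log2 CPM), and that of ITGA3 was most like that of ITGA5 (r = 0.973). ITGA2 was most like ITGB1 (r = 0.926) and ITGB3 most like ITGA2 (r = 0.913). ITGAV and ITGB8 were most like each other at r = 0.517, and ITGB4 and ITGB5 at r = 0.556. The points share libraries and conditions, and the coefficients are given as a description over 6 libraries.

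Among the genes of the adhesion lists, those most like ITGB3 were VCL, the actin-binding scaffold vinculin (r = 0.995), and the tensin TNS3 (r = 0.994). VCL was at 209 and 288 CPM in NC, 181 and 177 CPM under si-circ235-1, and 602 and 613 CPM under si-circ235-2. ITGB1 was most like RAB11FIP1, a Rab11 effector of recycling (r = 0.994), and the kindlin FERMT1 (r = 0.975). ITGA2 was most like the signalling adaptor CRK (r = 0.989) and LIMS1, a partner of integrin-linked kinase (r = 0.960).

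Of the 16 other integrin subunits, 8 passed the filter and 8 did not. ITGA4 and ITGAD had 0 counts in every library. For si-circ235-1 against NC none of the 8 passed by edgeR (1 higher at an unadjusted p under 0.05) or by DESeq2. Under si-circ235-2 ITGAE and ITGB2, which are known mainly from leukocytes, fell. ITGAE was at 58.9 and 42.7 CPM in NC and at 28.0 and 21.0 CPM in si-circ235-2 (log2 fold change -1.05, adjusted p = 0.00729, edgeR), and ITGB2 was at 6.69 and 4.58 CPM and at 2.60 and 3.01 CPM (-1.0, adjusted p = 0.0286, edgeR). Neither was called without NC replicate 1.

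The genes around the integrins were counted by role, using lists of known ligands, adaptors and partners. The shares of all tested genes beside which each count stands were 2.24% (higher) and 3.64% (lower) for si-circ235-1 against NC, and 15.7% each way for si-circ235-2 against NC. Taking out the length and GC trend gave 940 higher and 947 lower of 14386 genes for si-circ235-1 and 1495 and 2123 for si-circ235-2. Of 21 tested matrix ligands, 2 rose and 3 fell under si-circ235-1, and 9 rose and 2 fell under si-circ235-2. The type IV collagen gene COL4A1 rose under both siRNAs against the shared NC libraries, by 1.91 (SE 0.20) under si-circ235-1 and 2.05 (SE 0.20) under si-circ235-2 on the log2 scale. LAMC1, a laminin chain, rose by 1.01 under si-circ235-1 and was also called higher under si-circ235-2. It was at 62.0 and 75.8 CPM in NC, 149 and 128 CPM under si-circ235-1, and 201 and 204 CPM under si-circ235-2. The glycoprotein genes TNC and NPNT had log2 fold changes of -1.31 and -1.22 under si-circ235-1 and fell.

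COL6A2 (-0.81) and TGFB1 (-0.61) fell under si-circ235-2. With the trend taken out, 6 ligands passed as higher and 5 as lower under si-circ235-1, and 7 and 2 under si-circ235-2. The median log2 fold change of the ligands was -0.11 under si-circ235-1 and 0.47 under si-circ235-2.

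Of 16 tested adaptors that bind integrin tails, 0 rose and 2 fell under si-circ235-1, and 7 rose and 4 fell under si-circ235-2. For si-circ235-1 3 adaptors were higher at an unadjusted p under 0.05 and DESeq2 called 0 higher. The actin crosslinker ACTN4 was at 283 and 314 CPM in NC and at 135 and 77.1 CPM in si-circ235-1 (log2 fold change -1.49, adjusted p = 0.0131, edgeR). SHARPIN, an inhibitor of integrin activation, had a log2 fold change of -0.95 under si-circ235-1. SHARPIN was also called lower under si-circ235-2, at 174 and 116 CPM in NC and 74.2 and 61.0 CPM in si-circ235-2. Under si-circ235-2 the kindlin gene FERMT1 (1.20) rose, while the calcium-binding protein gene CIB1 (-1.19) and the scaffold RACK1 (-1.13) fell. With the trend taken out, 2 adaptors passed as higher and 3 as lower under si-circ235-1, and 5 and 3 under si-circ235-2.

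Of 25 tested scaffold and kinase genes of the focal adhesion, 0 rose and 2 fell under si-circ235-1 (GIT1 at -1.36 and the paxillin gene PXN at -0.97), and 12 rose and 3 fell under si-circ235-2. For si-circ235-1 3 of these genes were higher at an unadjusted p under 0.05 and DESeq2 called 2 higher. CRK (2.54) and GIT2 (1.74) had the largest rises under si-circ235-2 among those averaging 5 CPM or more, and PARVB and the docking protein gene BCAR1 fell, both at -0.74. Between the siRNAs PXN was higher in si-circ235-2 by 2.10. With the trend taken out, 2 passed as higher and 3 as lower under si-circ235-1, and 8 and 3 under si-circ235-2. Without TMM the si-circ235-2 counts were 13 and 0. The median log2 fold change was -0.14 under si-circ235-1 and 0.41 under si-circ235-2.

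Of 13 tested membrane partners of integrins, 4 rose and 0 fell under si-circ235-1, and 0 rose and 3 fell under si-circ235-2. The urokinase receptor gene PLAUR rose under si-circ235-1 by 1.58 and the syndecan gene SDC4 by 1.06, with CD47 and CD9 the other two. BSG (-1.02), TSPAN4 (-0.87) and SLC3A2 (-0.82) fell under si-circ235-2. No partner was lower at an unadjusted p under 0.05 under si-circ235-1 by edgeR or called lower by DESeq2, and under si-circ235-2 2 were higher at that p and DESeq2 called 1 higher. Without TMM 3 partners passed as higher and 3 as lower under si-circ235-2, and with the trend taken out 1 was higher and 2 lower there and 6 were higher under si-circ235-1. Between the siRNAs 2 partners were higher and 9 lower in si-circ235-2.

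Among 4 tested hemidesmosome partners of ITGA6 and ITGB4, the tetraspanin gene CD151 fell under si-circ235-2 (338 and 180 CPM in NC and 108 and 84.0 CPM in si-circ235-2, log2 fold change -1.43, adjusted p = 0.00472, edgeR). COL17A1 rose by 1.74 from 9 and 5 counts to 31 and 25 counts, and DESeq2 did not call it. COL17A1 had 31 and 22 counts under si-circ235-1, where edgeR called 0 of the 4 partners. There 1 partner was higher and 1 lower at an unadjusted p under 0.05, and DESeq2 called 1 lower. Of 15 trafficking genes, none was called under si-circ235-1 by edgeR, where 4 were higher and 2 lower at an unadjusted p under 0.05 and DESeq2 called 1 each way. Under si-circ235-2 4 rose and 1 fell, led by RAB11FIP1 at 3.68 (0.459 and 2.20 CPM in NC and 14.8 and 19.8 CPM in si-circ235-2). SNX27 rose by 1.35 and RAB5C was lower at -0.72. With the trend taken out, 2 trafficking genes passed as higher and 1 as lower under si-circ235-2, and COL17A1 was not called.

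The list counts changed when single libraries were omitted. Without NC replicate 1, 6 ligands rose and 0 fell, 3 adaptors rose and 1 fell, 5 focal adhesion genes rose and 0 fell, 1 trafficking gene rose, and 0 membrane partners were called, while over all genes 442 were higher and 341 lower. Without si-circ235-2 replicate 2, 6 ligands rose and 0 fell, 4 adaptors rose and 3 fell, 11 focal adhesion genes rose and 1 fell, 3 trafficking genes rose, and 1 membrane partner fell, while over all genes 1554 were higher and 1714 lower. For si-circ235-1 against NC, none of the 102 tested genes of these lists passed edgeR once si-circ235-1 replicate 2 was omitted (28 had an unadjusted p under 0.05), against 6 higher and 7 lower with all libraries, and 2 rose and 2 fell once NC replicate 1 was omitted. Those edgeR fits called 0 of all 15081 genes (2118 had an unadjusted p under 0.05), and 17 higher and 57 lower of 15123 genes, so the small counts were shared by all genes. COL17A1, SLC3A2, CD47 and CD9 were named after their values were seen.

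**Figure D5:**
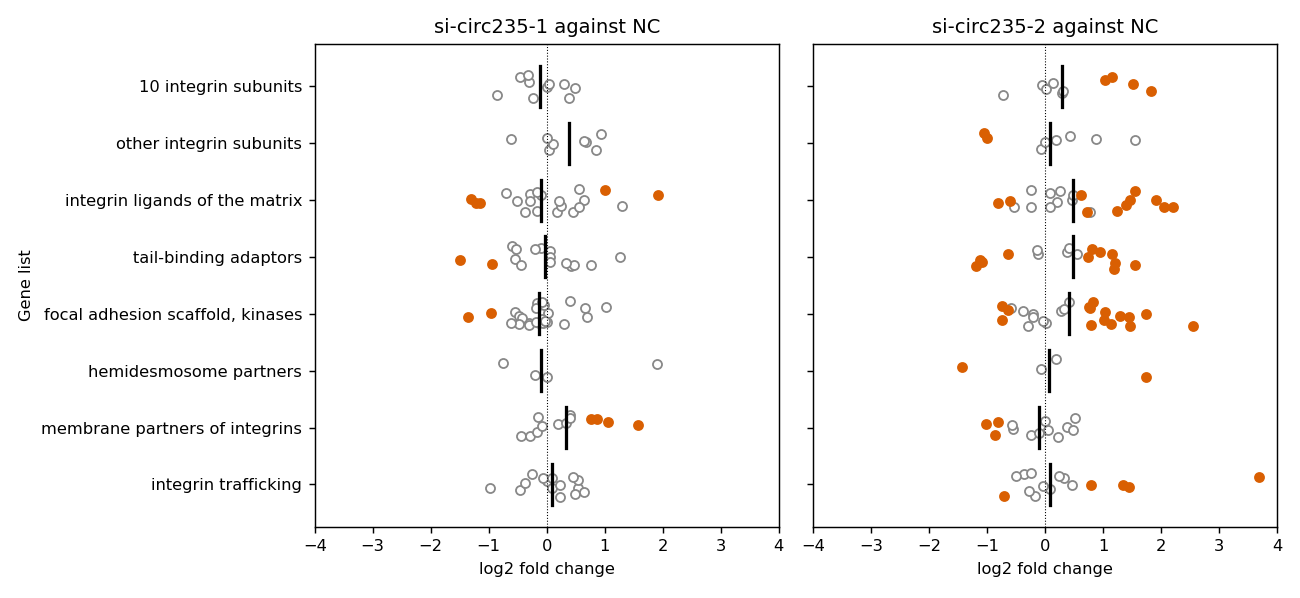
Log2 fold change of each tested gene of the integrin and adhesion lists for si-circ235-1 against NC (left) and si-circ235-2 against NC (right); orange points passed an adjusted p of 0.05 in edgeR, open points did not, and black bars are medians. No integrin member is orange on the left and 4 are on the right, and the ligand, adaptor and focal adhesion medians are between -0.14 and -0.03 on the left and between 0.41 and 0.48 on the right.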

How the data were processed

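The authors selected poly(A) RNA of T24 cells on oligo dT beads and made libraries that do not keep the strand. The deposited values are raw counts of reads per gene, without normalization. The submitters' processing notes name FastQC, cutadapt, STAR and hg38, whereas the sources used here do not give the counting tool or the annotation. Column names were matched to the sample labels.

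The counts were tested with edgeR 4.0.16 in R 4.3.3 (filterByExpr, TMM, quasi-likelihood test, Benjamini-Hochberg over 14415 genes, threshold 0.05). All 6 libraries were fitted with 1 mean per condition, which left 3 residual degrees of freedom. The edgeR fit also drew on the spread of all tested genes, so the p-values rest on both. DESeq2 1.42.0 was an alternative. Transcript length, GC content, exons and 3′ UTRs came from GENCODE 29 (GRCh38), in which 99.5% of the identifiers were found.

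All 10 members are named. From each other list up to 2 called rises and 2 called falls with a mean of at least 5 CPM are named in each comparison, and likeness added the genes closest to the 3 most variable members. Some genes that these rules would name are counted but not reported here by name. The members and lists were chosen with earlier results of these data known. Likeness used log2(CPM + 0.5). ITGB3 shares 2266 exon bases with the protein-coding gene ENSG00000259753, which had 0 counts in every library, so reads of shared exons may be missing from ITGB3. ITGB1 shares 42 exon bases with ITGB1-DT (70 to 168 counts).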

Additional observations from a re-analysis of the deposited data

How the results depend on the processing

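Of the calls for si-circ235-2 against NC, ITGA6, ITGB1 and ITGB3 kept theirs in 13 of 14 alternatives and ITGA2 in 10. A test against a 2-fold threshold (edgeR glmTreat) left 0 of the 4 calls for si-circ235-2 against NC (2 members had an unadjusted p under 0.05). Between the siRNAs it left 1 of 5 (ITGB3). Over all 14415 genes, that test called 46 higher and 15 lower for si-circ235-2 against NC, and 402 higher and 175 lower between the siRNAs. The length and GC trend removal gave 1 call (ITGB5) for si-circ235-1 against NC, where the main count was 0. Leaving out single libraries gave 0 calls throughout for si-circ235-1, 3 to 4 for si-circ235-2, and 2 to 6 between the siRNAs.

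Values that changed sign were all uncalled. For si-circ235-1 against NC these were ITGA2 (-0.082 without TMM, -2.662e-05 without the filter, -0.15 with the trend removed, -0.22 to 0.21 with single libraries left out), ITGA3 (0.017 with the trend removed), ITGB1 (-0.017 to 0.72 with libraries left out) and ITGB4 (-0.026 without TMM, -0.18 to 0.26 with libraries left out). For si-circ235-2 against NC these were ITGA5 (-0.064 with the trend removed), ITGAV (-0.24 with the trend removed, -0.49 to 0.57 with libraries left out), ITGB4 (0.22 without TMM, -0.23 to 0.16 with libraries left out) and ITGB5 (-0.0004572 with DESeq2 size factors, -0.29 with the trend removed, -0.076 to 0.092 with libraries left out). Between the siRNAs these were ITGAV (-0.19 to 0.87 with libraries left out) and ITGB4 (0.24 without TMM, -0.29 to 0.13 with libraries left out). Apart from the trend and the omitted libraries themselves, the cause was not tested.

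Omitting TMM moved the median over all genes, on the log2 scale, from -0.03 to -0.11, from -0.004 to 0.25 and from 0.04 to 0.37, and gave 179 higher and 529 lower, 3173 higher and 1294 lower, and 4534 higher and 1496 lower. Trend removal gave 1495 higher and 2123 lower for si-circ235-2 against NC. The replicate numbers did not pair the libraries (correlations of deviations -0.09, 0.15 and 0.14), and a replicate block gave 0, 4 and 6 member calls, with ITGB5 added between the siRNAs. DESeq2 gave 0, 4 and 7. Total exon length in place of transcript length put ITGA3 at 79.9% to 83.3% of the alpha members. ITGA2, ITGB3 and ITGB8 rest on 23 to 296 counts a library. Leaving out a library leaves 1 in its condition, which is then assumed to vary like the others.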
